A study of Homo sapiens with 14 samples.

Results

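PTCRA, RAG1, RAG2 and DNTT, the genes of the pre-TCR alpha chain, the V(D)J recombinase and terminal deoxynucleotidyl transferase (TdT), were followed in CUTLL1 and CEM, human lines of T cell acute lymphoblastic leukemia, after knockdown of a histone demethylase. All 4 genes were found by their symbols in each of the 6 deposited tables, among 55075 genes in all. CUTLL1 is a line with a rearranged NOTCH1 gene, and both lines were grown in suspension in RPMI and infected with retroviruses that express a short hairpin RNA. In CUTLL1 there were 3 samples with the hairpin against JMJD3 (shJMJD3, gene KDM6B), 2 with the hairpin against UTX (shUTX, gene KDM6A) and 3 with the control hairpin against Renilla luciferase (shRenilla), and CEM had 2 samples of each. Every group is a bulk culture of an established line that carries a virus, the controls included, and how many hairpin sequences were used or how long cells carried them are points the sources used here do not give. JMJD3 and UTX demethylate histone H3 at lysine 27, a mark laid down by Polycomb, and the series set out to contrast them in this leukemia.

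The 4 genes work at the same stage of T cell life. RAG1 and RAG2 together form the recombinase that cuts antigen receptor genes at their recombination signals, TdT adds bases without a template where the cut ends are joined, and pre-T alpha pairs with a newly made T cell receptor beta chain to form the pre-TCR, the receptor that lets an immature thymocyte go on. RAG1 and RAG2 sit side by side on chromosome 11 and are read from opposite strands, PTCRA is on chromosome 6 and DNTT on chromosome 10. In mouse and human thymocytes PTCRA is a known target of NOTCH signalling and of E proteins, basic helix-loop-helix factors that bind the E-box, CANNTG.

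The promoter windows of PTCRA, RAG2 and DNTT are shown because these genes, all expressed at the same stage, differed from one another: PTCRA and RAG2 had other levels in CUTLL1 than in CEM, and DNTT stood on the other side of the control from both with shJMJD3 in CEM. Each window runs from 250 bases before to 50 bases after the RefSeq start (GRCh38.p14), 5′ to 3′ on the gene's strand, with E-boxes in capitals.
PTCRA, chr6:42915803-42916102, plus strand: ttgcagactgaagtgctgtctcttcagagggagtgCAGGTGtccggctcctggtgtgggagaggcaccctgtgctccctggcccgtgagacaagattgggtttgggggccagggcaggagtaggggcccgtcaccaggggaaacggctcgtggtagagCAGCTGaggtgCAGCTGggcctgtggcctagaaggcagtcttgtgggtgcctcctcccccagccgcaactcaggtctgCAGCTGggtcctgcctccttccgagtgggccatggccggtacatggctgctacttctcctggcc
RAG2, chr11:36598187-36598486, minus strand: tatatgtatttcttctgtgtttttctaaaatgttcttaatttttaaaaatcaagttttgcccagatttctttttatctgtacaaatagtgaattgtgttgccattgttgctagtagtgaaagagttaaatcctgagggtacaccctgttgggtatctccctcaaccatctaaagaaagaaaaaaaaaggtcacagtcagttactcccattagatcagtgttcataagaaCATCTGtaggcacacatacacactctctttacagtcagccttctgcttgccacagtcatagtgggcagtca
DNTT, chr10:96304184-96304483, plus strand: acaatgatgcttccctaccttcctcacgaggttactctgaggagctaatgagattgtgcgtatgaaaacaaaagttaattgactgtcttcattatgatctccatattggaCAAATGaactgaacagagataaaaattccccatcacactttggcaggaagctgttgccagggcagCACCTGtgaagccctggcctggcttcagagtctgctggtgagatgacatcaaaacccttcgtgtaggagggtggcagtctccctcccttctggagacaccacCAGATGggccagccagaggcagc

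Motifs were searched on both strands, and CANNTG and CAGCTG read the same on either strand. The PTCRA window held 4 E-boxes, whose first letters lie at -215, -92, -81 and -14 from the start, and 3 of them were CAGCTG, which is itself a CANNTG. GENCODE release 29 places the PTCRA start at -64, so the E-box at -14 lies downstream of that start. Its DNTT starts lay at -38 and -25, and its RAG2 starts ran from -43 to 3481. Of 27305 RefSeq promoter windows of the same length, 69.2% held at least 1 CANNTG and 5.74% held 4 or more, while 17.8% held a CAGCTG and 0.201% held 3 or more. The DNTT window held 3 E-boxes, at -140, -75 and 28 bases after the start, none of them CAGCTG, and 15.7% of windows held as many. The RAG2 window held 1 E-box, at -21. RAG1 is not printed, because its RefSeq window starts from a site 356 to 57672 bases upstream of the starts that GENCODE release 29 gives this gene. TGGGAA, the core letters bound by RBPJ, the factor through which NOTCH acts, was found in none of the 4 windows and in 24.4% of all windows, so no match says only that these letters are not in these windows.

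Levels are given in CPM, the count scaled to the column total, and each of the 6 columns is 1 count per gene for 1 hairpin in 1 line. Column totals ran between 70280185 and 258014046 counts. Within a line there is no replicate column, so the interval beside a level or ratio is binomial (exact, 95%) and speaks of counting error alone. The CUTLL1 shRenilla column was deposited in 2 versions, a larger one set against shJMJD3 and a smaller one set against shUTX, and the remainder left by subtraction differed from the smaller in kind: small noncoding RNA took 18.7% of its counts, against 1.97% in the smaller column. That share was 11.7% in CUTLL1 shJMJD3, 2.58% in CUTLL1 shUTX, 9.33% in the larger control column and at most 0.0486% in CEM. All 8 T cell markers checked were detected in every column, with a summed level between 2043 and 3575 CPM. Summed B cell markers were at most 4.30 CPM in CUTLL1 against up to 88.8 CPM in CEM, mostly CD79A, and myeloid, fibroblast and erythroid markers stayed under 10 CPM in each sum, while NK markers summed to 8.26 to 34.0 CPM in CUTLL1, lowest in the control remainder, against 15.2 to 29.9 CPM in CEM, with NKG7 highest. The targeted genes went with their labels. KDM6B had 10.9 CPM with shJMJD3 against 18.8 CPM with shRenilla in CUTLL1, and 52.2 against 206 CPM in CEM. KDM6A had 19.3 CPM with shUTX against 43.0 CPM in the paired CUTLL1 control, and 51.5 against 136 CPM in CEM. KDM6A was also lower in CEM with shJMJD3, at 86.7 CPM. In CUTLL1, KDM6B was higher with shUTX, at 28.2 CPM against 21.5 CPM in the paired control (log2 ratio 0.43 after TMM scaling, interval 0.36 to 0.50).

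The 2 lines differed most in PTCRA, the pre-TCR alpha chain. In CUTLL1 it had 140 CPM with shJMJD3, 167 CPM with shUTX and 152 CPM with shRenilla. In CEM it had 1.37 CPM (96 counts) with shJMJD3, 1.26 CPM (89 counts) with shUTX and 4.43 CPM (462 counts) with shRenilla. CUTLL1 was above CEM by 103-fold with shJMJD3, 133-fold with shUTX and 34.2-fold with shRenilla. Over the 3 hairpins the log2 ratio of CUTLL1 to CEM was 6.57 (SE 0.49), with an adjusted p of 0.00218 by edgeR's quasi-likelihood F test with the hairpin as a block.

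RAG2, the recombinase's regulatory subunit, was also higher in CUTLL1 in that test. Its level was 85.6, 91.9 and 86.6 CPM in CUTLL1 with shJMJD3, shUTX and shRenilla. In CEM its level was 8.44, 36.0 and 42.8 CPM in the same order of hairpins. The log2 ratio of CUTLL1 to CEM was 2.18 (SE 0.49, edgeR adjusted p = 0.0279). The ratio was 10.1-fold with shJMJD3 but 2.55-fold with shUTX and 2.02-fold with shRenilla, and without the shRenilla columns the edgeR adjusted p was 0.0726.

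RAG1, the catalytic subunit, and DNTT did not pass that test. RAG1 had 197, 145 and 179 CPM in CUTLL1 with shJMJD3, shUTX and shRenilla, against 47.7, 210 and 274 CPM in CEM. CUTLL1 was thus higher with shJMJD3 (4.14-fold) and lower with the other hairpins (0.693 and 0.654), and the log2 ratio over all 3 was 0.56 (SE 0.59, edgeR adjusted p = 0.477). DNTT had 41.7, 38.6 and 25.1 CPM in CUTLL1 against 56.4, 33.7 and 24.6 CPM in CEM, with a log2 ratio of 0.24 (SE 0.20, edgeR adjusted p = 0.384). PTCRA and RAG2 thus passed, both higher in CUTLL1, where the background is large: edgeR called 19.0% of 24003 genes higher and 17.8% lower in CUTLL1, and DESeq2 called 47.5% in either direction. The share of counts in protein-coding genes, 66.9% to 79.0% in the 3 CUTLL1 columns of this fit and 93.0% to 94.1% in the CEM columns, moved with the line, and its part in these ratios was not tested.

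**Figure D1:**
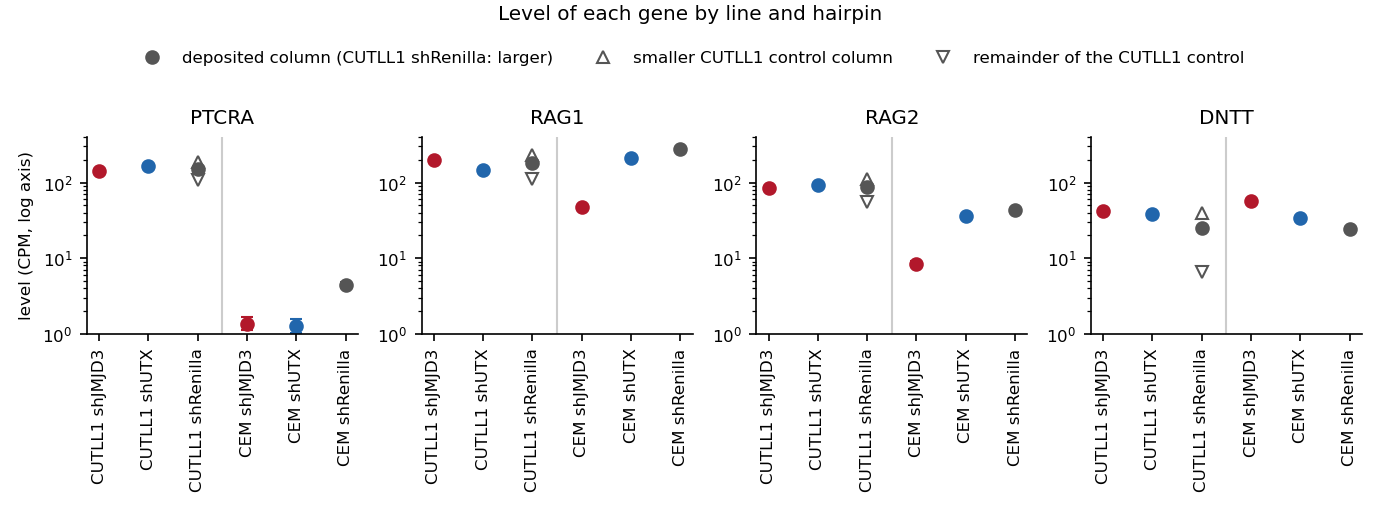
Level of each gene (CPM, log axis) in each line and hairpin; bars are 95% binomial intervals of the counts, and open triangles show the smaller CUTLL1 control column and the remainder. PTCRA lies between 140 and 167 CPM in CUTLL1 and between 1.26 and 4.43 CPM in CEM, and RAG1 and RAG2 are lowest in CEM with shJMJD3.

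Per kilobase of exon (GENCODE release 29), the order of the 4 genes differed between the lines. PTCRA was highest in every CUTLL1 column, with 120, 143 and 130 CPM per kilobase for shJMJD3, shUTX and shRenilla, above at least 99.1% of the 19065 protein-coding genes. In CEM it was the lowest of the 4 in every column. RAG1 led in CEM with shUTX and shRenilla, at 26.8 and 35.1 CPM per kilobase, while DNTT led with shJMJD3, at 28.6 CPM per kilobase. The ratio of RAG1 to RAG2 per kilobase lay between 0.709 and 1.03 in the CUTLL1 columns, against 2.53 to 2.87 in the CEM columns. Exons of RAG1 and RAG2 overlap each other on opposite strands, and those of RAG2 also overlap C11orf74, so where the counting did not use the strand, reads from them cannot be told apart.

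Knockdown of JMJD3 in CEM went with lower RAG1, RAG2 and PTCRA and higher DNTT. RAG1 was 47.7 CPM (interval 46.1 to 49.3) with shJMJD3 against 274 CPM (271 to 277) with shRenilla (log2 ratio -2.21, -2.26 to -2.16) after TMM scaling. RAG2 was 8.44 CPM (7.77 to 9.14) with shJMJD3 against 42.8 CPM (41.5 to 44.0) with shRenilla (log2 ratio -2.03, -2.16 to -1.91). Both subunits of the recombinase were thus about equally far below the control. PTCRA was 1.37 CPM (1.11 to 1.67) with shJMJD3 against 4.43 CPM (4.04 to 4.86) with shRenilla (log2 ratio -1.38, -1.72 to -1.07). DNTT was 56.4 CPM (54.6 to 58.1) with shJMJD3 against 24.6 CPM (23.6 to 25.5) with shRenilla (log2 ratio 1.51, 1.44 to 1.58). TdT was therefore on the other side of its control from the recombinase and pre-T alpha. All 4 genes were at least 2-fold apart, in a comparison in which 13.5% of 16998 genes with 50 or more counts in either column were that far below and 11.9% that far above the control. Of those genes, 2.71% had a ratio as low as RAG1, 3.37% as low as RAG2 and 7.85% as low as PTCRA, and 5.75% had one as high as DNTT. In bulk cultures, fewer cells with a transcript and less of it per cell cannot be told apart.

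In CUTLL1 with shJMJD3, DNTT was again the highest of the 4 ratios and the other 3 lay close to the control. PTCRA was 140 CPM with shJMJD3 against 152 CPM with shRenilla (log2 ratio 0.04, interval 0.02 to 0.06, after TMM scaling, and -0.11 by column totals), so its direction depended on the scaling. RAG1 had a log2 ratio of 0.29 (0.27 to 0.31) and RAG2 of 0.14 (0.11 to 0.17), with RAG2 at -0.02 by column totals and -0.0075 against the smaller control, so its direction too depended on these choices. DNTT was 41.7 CPM with shJMJD3 against 25.1 CPM with shRenilla (log2 ratio 0.89, 0.84 to 0.93). None of the 4 was 2-fold apart, where 3.74% of 19772 genes were that far above and 2.20% that far below. The DNTT value turns on the control: the level was 39.8 CPM in the smaller control column and 6.53 CPM in the remainder, so the log2 ratio was 0.45 against the first and 2.48 against the second. Between these parts of the control, the log2 ratio of the remainder to the smaller column was -2.05 (-2.16 to -1.94), and 1.70% of genes had a ratio as low, in a comparison in which 7.04% of 18546 genes were at least 2-fold lower and 16.8% higher in the remainder. RAG1 was above each form of the control, with log2 ratios of 0.14 against the smaller column and 0.64 against the remainder.

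Across both lines, with the line as a block, no gene passed edgeR's quasi-likelihood F test for shJMJD3 against shRenilla (0% of 24003, with 936 at an unadjusted p under 0.05 and 115 called by DESeq2, 0.624% of those it tested). DNTT was higher with shJMJD3 in both lines (log2 ratio 1.21, SE 0.25), with an adjusted p of 0.800 by edgeR and 0.0206 by DESeq2, so that the tools differ on it. With the smaller CUTLL1 control column the DNTT log2 ratio was 0.95 (edgeR adjusted p = 0.630). DESeq2 was run for this comparison with the larger control column only. RAG2 had a log2 ratio of -0.83 (SE 0.58, edgeR adjusted p = 0.800), RAG1 of -0.77 (SE 0.71, edgeR adjusted p = 0.820) and PTCRA of -0.74 (SE 0.48, edgeR adjusted p = 0.800). These 3 negative ratios came from the CEM columns, since the CUTLL1 values against the paired control were above 0.

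Knockdown of UTX in CEM went with lower PTCRA and with smaller differences in the other genes. PTCRA was 1.26 CPM (1.01 to 1.55) with shUTX against 4.43 CPM with shRenilla (log2 ratio -1.74, -2.10 to -1.42). It was the 1 gene of the 4 past 2-fold, where 1.17% of 16791 genes were that far below and 0.905% that far above the control, and 0.197% of genes had a ratio as low. RAG1 was 210 CPM with shUTX against 274 CPM with shRenilla (log2 ratio -0.32, -0.35 to -0.29), and RAG2 was 36.0 against 42.8 CPM (log2 ratio -0.18, -0.26 to -0.11). DNTT was 33.7 CPM with shUTX against 24.6 CPM with shRenilla (log2 ratio 0.52, 0.44 to 0.60). The shUTX and shJMJD3 ratios share the control column.

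In CUTLL1, set against the paired smaller control, the gene furthest from it with shUTX was RAG1. RAG1 was 145 CPM with shUTX against 233 CPM with shRenilla (log2 ratio -0.64, -0.67 to -0.61), and 1.82% of 16886 genes had one as low. Against the larger control the log2 ratio was -0.34, and against the remainder it was -0.12, so it was below every form of the control by differing amounts. PTCRA had a log2 ratio of -0.11 (0.11 against the larger column), RAG2 of -0.24 (0.05 against the larger column) and DNTT of -0.00 (-0.06 to 0.06; 0.59 against the larger column and 2.05 against the remainder). The direction for PTCRA and RAG2 therefore depended on which control column was used. None of the 4 was past 2-fold, where 0.687% of genes were above and 0.237% below by that much. Across lines, the log2 ratios for shUTX against shRenilla were -0.96 (SE 0.46) for PTCRA, -0.46 (SE 0.70) for RAG1, -0.22 (SE 0.58) for RAG2 and 0.22 (SE 0.28) for DNTT, all with an edgeR adjusted p of 1. No gene passed in that fit (0% of 23112, with 39 at an unadjusted p under 0.05 and 1, or 0.00433%, called by DESeq2).

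**Figure D2:**
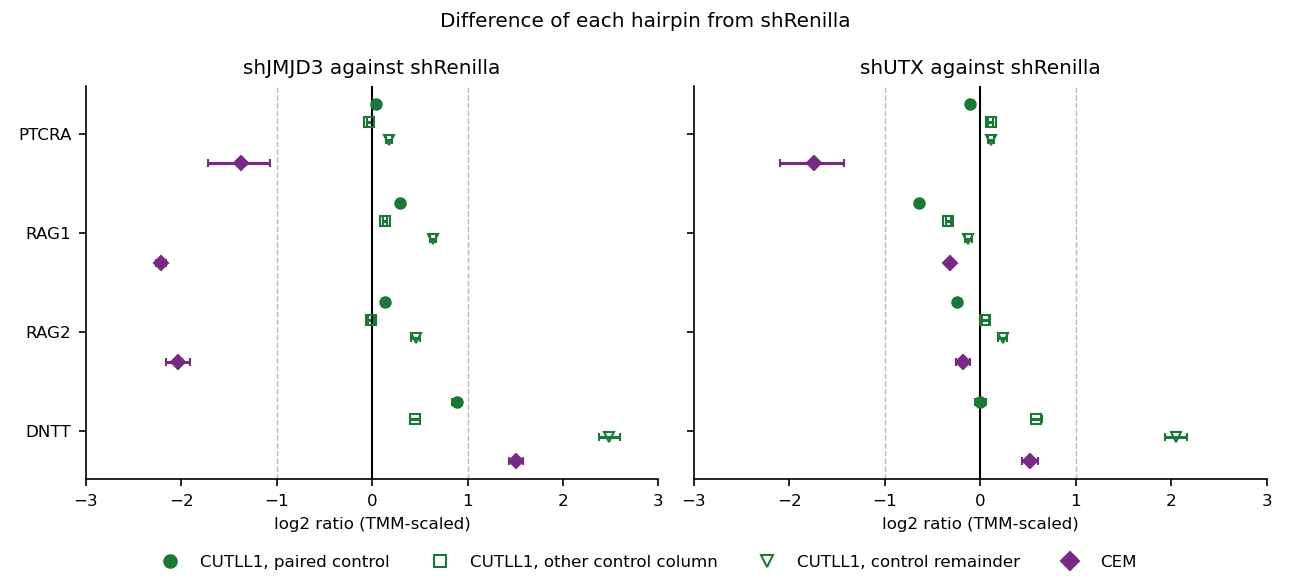
TMM-scaled log2 ratio of shJMJD3 (left) and shUTX (right) to shRenilla for each gene, with 95% binomial intervals; green circles are CUTLL1 against the paired control, open green marks CUTLL1 against the other control column and the remainder, and purple diamonds CEM, with dashed lines at 2-fold. In CEM with shJMJD3, RAG1, RAG2 and PTCRA lie left of -1 and DNTT right of 1, while the CUTLL1 values of the first 3 genes lie between -0.03 and 0.64.

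Set directly against each other in CEM, the hairpins differed in the recombinase and not detectably in pre-T alpha. RAG1 had 47.7 CPM with shJMJD3 against 210 CPM with shUTX (log2 ratio -1.89), and RAG2 had 8.44 against 36.0 CPM (log2 ratio -1.85, -1.98 to -1.72). DNTT had a log2 ratio of 0.99. PTCRA had 1.37 CPM with shJMJD3 and 1.26 CPM with shUTX, and its log2 ratio of 0.36 had an interval of -0.07 to 0.80 that includes 0. In the authors' deposited table this PTCRA difference had a p-value of 0.570, from a test that compares the libraries and not the conditions. RAG1 and RAG2 were thus 2 of the 4 past 2-fold, both lower with shJMJD3, against 12.8% of 16229 genes lower and 11.8% higher. In CUTLL1 the log2 ratios of shJMJD3 to shUTX were 0.63 for RAG1, 0.30 for DNTT, 0.08 for RAG2 and -0.07 for PTCRA, where the median of all genes was -0.12. None was past 2-fold, where 13.7% of 18287 genes were higher and 2.61% lower, and the kind of RNA in these 2 CUTLL1 columns cannot be told apart from the hairpin. Across lines the log2 ratios were 0.65 for DNTT (edgeR adjusted p = 0.608), -0.74 for RAG2, -0.44 for RAG1 and 0.09 for PTCRA, and 0% of 24003 genes passed (1945 at an unadjusted p under 0.05, and 313, or 1.58% of those it tested, called by DESeq2).

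Of the genes beside RAG1 and RAG2, the one whose exons overlap RAG2 was as low as the RAG genes with shJMJD3 in CEM, and the others were not. C11orf74 was 0.370 CPM with shJMJD3 against 2.23 CPM with shRenilla in CEM, a log2 ratio of -2.23, next to -2.03 for RAG2, and its 0.27 in CUTLL1 lay near the 0.14 of RAG2. TRAF6, a ubiquitin ligase of innate immune signalling, had 25.9 CPM with shJMJD3 against 24.1 CPM with shRenilla in CEM (log2 ratio 0.41), and COMMD9 had 14.4 against 20.5 CPM (log2 ratio -0.19). PRR5L, a partner of the mTORC2 kinase complex, had 0.754 CPM with shJMJD3 against 0.240 CPM with shRenilla in CEM (log2 ratio 1.88), and it had under 50 counts in each CUTLL1 column compared. With shUTX, C11orf74 had log2 ratios of -0.27 in CUTLL1 and -0.06 in CEM, and COMMD9 of -0.29 and -0.10, next to -0.24 and -0.18 for RAG2. The neighbours of PTCRA were CNPY3 (0.24), PEX6 (-0.08), RPL7L1 (-0.70) and GNMT (-1.40), by their log2 ratios of shJMJD3 to shRenilla in CEM. GNMT, a methyltransferase of glycine, was the neighbour of PTCRA nearest to its -1.38 there, at 0.541 CPM with shJMJD3 against 1.79 CPM with shRenilla, but it had a log2 ratio of 0.11 with shUTX, where PTCRA had -1.74. Of the neighbours of DNTT, TM9SF3 had log2 ratios of 0.14 in CUTLL1 and 0.19 in CEM with shJMJD3. BLNK, the B cell linker adaptor, had 0.396 CPM with shJMJD3 against 0.101 CPM with shRenilla in CUTLL1, a log2 ratio of 1.98, and OPALIN and TLL2 had under 50 counts in every column.

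**Figure D3:**
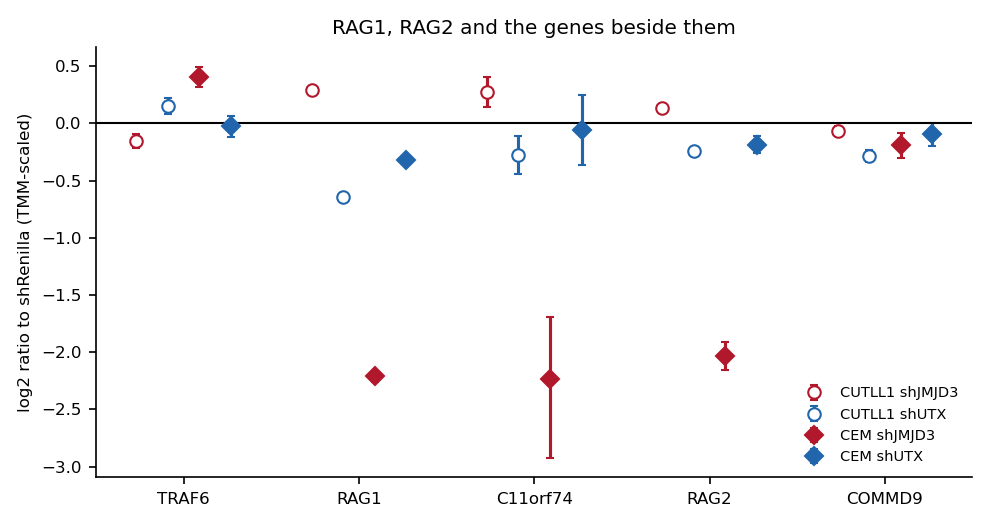
TMM-scaled log2 ratio to shRenilla of RAG1, RAG2, the overlapping C11orf74 and the neighbours TRAF6 and COMMD9, with 95% binomial intervals; circles are CUTLL1, diamonds CEM, red shJMJD3 and blue shUTX. In CEM with shJMJD3, RAG1 (-2.21), C11orf74 (-2.23) and RAG2 (-2.03) lie together below TRAF6 (0.41) and COMMD9 (-0.19).

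Genes that help cut or join V(D)J ends were counted next. Of 14 such genes, 4 stood 1.5-fold or more above the control and 0 below it with shJMJD3 in CEM (median log2 ratio 0.21, against -0.02 over all genes), where 22.4% of genes were that far above and 24.0% that far below. They included LIG4, the ligase that seals the ends, at 164 CPM with shJMJD3 against 64.3 CPM with shRenilla (log2 ratio 1.66), and HMGB2, a DNA-bending cofactor of RAG cutting, with a log2 ratio of 1.32. In CUTLL1 0 of 14 were 1.5-fold apart in either direction (median 0.04, against 8.56% of genes above and 7.11% below), and LIG4 and HMGB2 had log2 ratios of 0.06 and 0.12. With shUTX, 0 of 14 were 1.5-fold apart in either line, where 3.75% of genes in CEM were above and as many below, and 3.49% and 2.25% in CUTLL1. C9orf142, an end-joining scaffold also called PAXX, and XRCC6, a subunit of Ku, were furthest from the control with shUTX, with log2 ratios of -0.22 and -0.21 in CUTLL1.

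The 3 polymerases of the family of TdT, POLM, POLL and POLB, which fill gaps in DNA repair, were under 1.5-fold apart with shJMJD3 in both lines and with shUTX in CEM. With shUTX in CUTLL1 this held for POLM and POLB, while POLL had under 50 counts in each column compared. POLM had log2 ratios of -0.34 with shJMJD3 and -0.24 with shUTX in CEM, while DNTT had 1.51 and 0.52. Between lines the family was uneven: POLL had 0.189, 0.206 and 0.252 CPM in CUTLL1 with shJMJD3, shUTX and shRenilla, against 23.4, 25.2 and 24.9 CPM in CEM (log2 ratio -6.52, SE 0.29, edgeR adjusted p = 0.000885). POLM was higher in CUTLL1 than in CEM, by 1.25 on that scale (SE 0.16, edgeR adjusted p = 0.00752).

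Among 8 genes that carry RAG proteins into the nucleus or take part in their turnover, 4 stood that far above the control with shJMJD3 in CEM and 0 below it (median log2 ratio 0.61), where 22.4% of all genes were above and 24.0% below. CCNA2, cyclin A, had 346 CPM with shJMJD3 against 117 CPM with shRenilla (log2 ratio 1.87), and SKP2, part of the ubiquitin ligase that marks RAG2 for degradation as cells enter S phase, had 86.2 against 46.5 CPM (log2 ratio 1.20). In CUTLL1 0 of 8 were 1.5-fold apart with shJMJD3 (median -0.12), where 8.56% of all genes were above and 7.11% below. CCNA2 and SKP2 had log2 ratios of 0.21 and -0.12 there. With shUTX 0 of 8 were 1.5-fold apart in either line. KPNA2, an importin, had log2 ratios of -0.20 in CUTLL1 and 0.17 in CEM, and VPRBP, a substrate receptor that binds RAG1, had -0.13 and 0.18. At that threshold 3.75% of all genes were above and as many below in CEM, and 3.49% and 2.25% in CUTLL1.

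Of 16 genes of the pre-TCR complex and its signalling, 15 had 50 or more counts in CEM, and 4 of these were 1.5-fold higher and 2 lower with shJMJD3 (median log2 ratio 0.14), against 22.4% and 24.0% of all genes. CD247, the CD3 zeta chain, had a log2 ratio of 1.34 in CEM and 0.28 in CUTLL1, and ZAP70, the kinase it recruits, had -1.13 and -0.49. In CUTLL1 0 of 16 were higher and 1 lower with shJMJD3, where 8.56% of all genes were higher and 7.11% lower. With shUTX, GRAP2, an adaptor, was the 1 gene past 1.5-fold in CEM (log2 ratio -0.62), and SYK had -0.31 in CUTLL1, where 0 of 16 were past it. At that threshold 3.75% of all genes were higher and as many lower in CEM, and 3.49% and 2.25% in CUTLL1. PTCRA was thus the lowest in CEM with either hairpin of the pre-TCR genes named here.

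Of 17 activators known to act on these genes, 2 were 1.5-fold higher and 3 lower with shJMJD3 in CEM (median log2 ratio -0.03), against 22.4% and 24.0% of all genes, and 0 higher and 1 lower in CUTLL1 (median -0.03), against 8.56% and 7.11%. RBPJ, the NOTCH effector, had a log2 ratio of 1.41 in CEM and 0.21 in CUTLL1. FOXO1, which drives RAG1 and RAG2 in mouse B cell precursors, had -1.00 in CEM and 0.30 in CUTLL1. Any link to the RAG genes was not tested. With shUTX 0 of 17 were past 1.5-fold in either line, and RBPJ and TCF3, the E2A gene, had log2 ratios of 0.49 and -0.30 in CUTLL1. At that threshold 3.75% of all genes were higher and as many lower in CEM, and 3.49% and 2.25% in CUTLL1. Of 7 measured E protein antagonists and GFI1, 4 were higher and 0 lower with shJMJD3 in CEM (median 0.68), where 22.4% of all genes were higher and 24.0% lower. In CUTLL1 2 of 6 were higher with shJMJD3, beside 8.56% of all genes. LYL1, a basic helix-loop-helix partner of E proteins, was higher in both, with log2 ratios of 0.65 in CUTLL1 and 1.56 in CEM. With shUTX, ID2, an inhibitor of E protein binding, had -0.93 in CEM and LYL1 had 0.51 in CUTLL1 and 0.46 in CEM.

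Markers of the cortical thymocyte, the cell in which PTCRA, RAG and TdT are normally made, were mostly on the same side of the control as PTCRA in CEM. With shJMJD3, 7 of 9 stood 1.5-fold or more below the control and 1 above it (median log2 ratio -1.05), where 24.0% of all genes were below and 22.4% above. CD8A had 5.04 CPM with shJMJD3 against 32.7 CPM with shRenilla (log2 ratio -2.39), CD1A had -1.92 and CD1B -0.96, while CD4 had 448 against 138 CPM (log2 ratio 2.01). With shUTX, 5 of 9 were lower and 0 higher in CEM (median -0.67), where 3.75% of all genes were lower and as many higher, with CD1C at -1.18. Both of these CEM counts rest on the same shRenilla column. For shJMJD3 set directly against shUTX in CEM, the median of the 9 was -0.08, against -0.01 over all genes. In CUTLL1, 1 was higher and 1 lower with shJMJD3 (median 0.08), namely CD1A (0.86) and CD8A (-0.73), where 8.56% of all genes were higher and 7.11% lower. There 0 of 9 were past 1.5-fold with shUTX (median -0.25), where 3.49% of all genes were higher and 2.25% lower. Of 4 measured early progenitor markers, 3 were higher and 0 lower with shJMJD3 in CEM (median 0.82), beside the same 22.4% and 24.0% of all genes. CD34, a stem and progenitor antigen, had 16.9 CPM with shJMJD3, 7.37 CPM with shUTX and 4.05 CPM with shRenilla there. With shUTX the list was mixed in CEM, with 2 of 4 higher and 1 lower, CD34 at 0.93 and CD44, an adhesion receptor, at -0.79, against 3.75% of all genes in each direction. In CUTLL1 the same list had 1 higher and 2 lower of 3 with shJMJD3, with KIT at -1.68, beside 8.56% and 7.11% of all genes. Of 6 mature thymocyte markers, 2 were higher and 3 lower with shJMJD3 in CEM, and 1 higher and 1 lower in CUTLL1, while all genes had 22.4% higher and 24.0% lower in CEM and 8.56% and 7.11% in CUTLL1. KLF2, a factor of quiescent cells, was lower in both lines (-0.62 in CUTLL1 and -2.31 in CEM). The B lineage counterpart of pre-T alpha, the surrogate light chain gene IGLL1, had 41.3 CPM with shJMJD3 against 0.873 CPM with shRenilla in CEM and 3.26 against 0.574 CPM in CUTLL1, log2 ratios of 5.84 and 2.63. With shUTX it had 1.03 in CEM and 0.03 in CUTLL1.

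**Figure D4:**
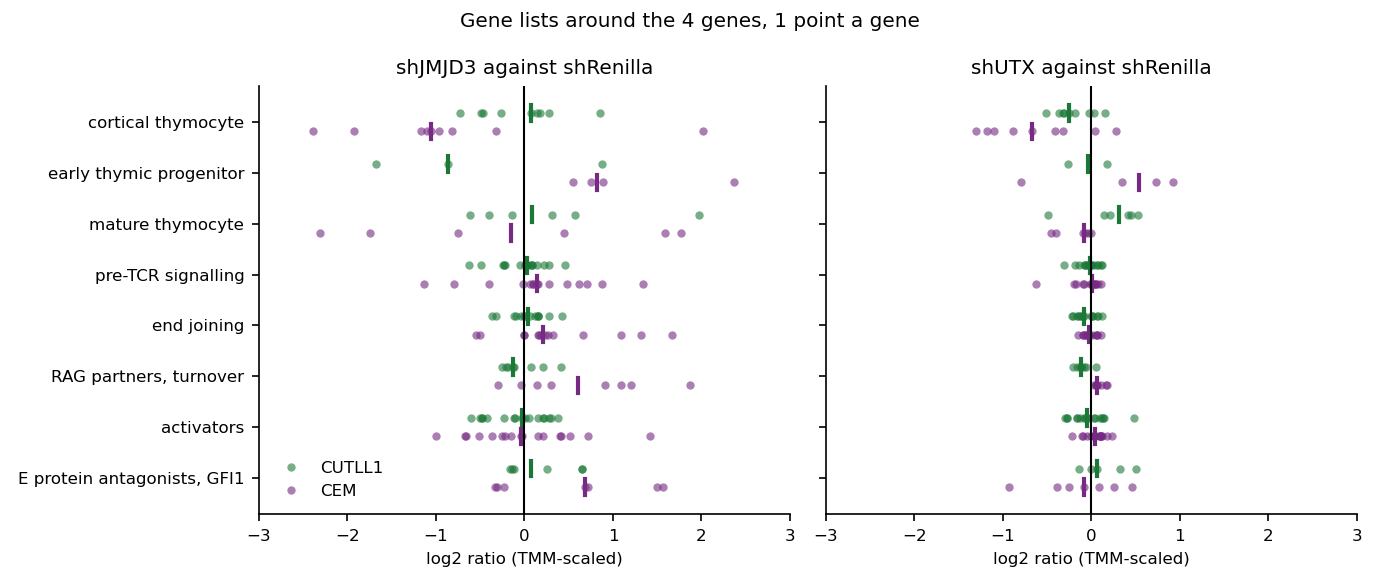
TMM-scaled log2 ratio of shJMJD3 (left) and shUTX (right) to shRenilla for the genes of 8 lists with 50 or more counts in either column, 1 point a gene, with a bar at the median; green is CUTLL1 and purple CEM. The cortical thymocyte medians are 0.08 with shJMJD3 and -0.25 with shUTX in CUTLL1, against -1.05 and -0.67 in CEM, while end joining genes reach 1.66 with shJMJD3 in CEM.

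The cortical and most early progenitor markers separated the lines in the test that PTCRA passed, while the mature markers were mixed. Of the 9 cortical markers, 7 were higher in CUTLL1 than in CEM by edgeR's quasi-likelihood F test over the 3 hairpins and 0 lower, and of 5 tested early progenitor markers 4 were lower and 0 higher, where 19.0% of all genes were higher and 17.8% lower. CD1B had a log2 ratio of 6.70 (edgeR adjusted p = 0.00115), CD8B of 6.53 (0.000877) and CD34 of -6.10 (0.00283). The early progenitor marker KIT had 1.38 and did not pass (edgeR adjusted p = 0.153). Of 6 mature markers, 1 was higher, IL7R (6.97), and 3 were lower, among them S1PR1 (-3.85) and KLF2 (-2.97), beside the same shares of all genes. Of the activators, 3 were higher in CUTLL1, NOTCH3 (3.31), NOTCH1 (1.34) and BCL11B (0.89), and 6 lower, with RUNX1 at -2.80 and GATA3 at -2.04. Of the E protein antagonists and GFI1, 3 were higher, ID3 (2.72), ID1 (1.75) and GFI1 itself (1.42), and TAL1 (-7.16) and LYL1 (-4.92) were among 3 lower. TCF3 and TCF12, the E protein genes, did not pass (log2 ratios 0.05 and 0.35, edgeR adjusted p of 0.853 and 0.177).

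Likeness of profile was measured as the Euclidean distance of centred log2 CPM over the 6 columns, against 13219 protein-coding genes. The profile of PTCRA was nearest to that of CD1B, a lipid-presenting molecule of cortical thymocytes (distance 0.638, against a median of 8.23 over all genes). CD1B had 571, 603 and 603 CPM in CUTLL1 with shJMJD3, shUTX and shRenilla and 4.87, 6.10 and 11.8 CPM in CEM, so it too was highest with shRenilla in CEM. Next came GUCY1B3, a subunit of guanylate cyclase (0.723), which had a 0 in 2 CEM columns, and WWTR1, the TAZ coactivator (0.730). RAG1 was nearest to TTC16 (0.282, against a median of 2.33), which had 11.3, 10.4 and 11.8 CPM in CUTLL1 and 2.96, 13.1 and 19.5 CPM in CEM, and then to FITM2 (0.493) and CEMP1 (0.505). RAG2 was nearest to the overlapping C11orf74 (0.256, against a median of 3.38), then APBA1 (0.358) and FN1, the fibronectin gene (0.375), whereas RAG1 and RAG2 were 2.00 apart. DNTT was nearest to HLA-G (0.314, against a median of 1.76), whose reads are shared with near-identical HLA genes and so uncertain, then ANO10 (0.356) and CTSB, the protease cathepsin B (0.385). The distances are a description over 6 columns that share their libraries, with no test.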

How the data were processed

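RNA was measured by sequencing in 14 samples. Per the labels' protocols, polyadenylated or Ribominus RNA was made into dUTP libraries, which keep the strand, and read as 50-nt single reads on an Illumina HiSeq. Neither the RNA each sample had, nor the gene counter, its annotation or its strand setting is given in the sources used here. CASAVA, TopHat and hg19 appear, without versions, in the submitters' processing notes. The authors deposited 6 DEGseq tables, 1 per line and pair of hairpins, with raw read counts per gene in 1 column a hairpin and line, per the file headers, so replicates were pooled. The deposited log2 ratios were scaled by the authors to column totals, and their p-values and q-values compare libraries. A score per gene (the z value of DEGseq) was deposited by the authors, per the file headers, and was not used. The CUTLL1 shRenilla column differed between its 2 tables (258014046 and 144394369 counts). The larger was at or above the smaller in every gene, and the remainder held 113619677 counts. shJMJD3 was set against the larger and shUTX against the smaller, as deposited, and the larger was used elsewhere.

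Counts were fitted with edgeR 4.0.16 (R 4.3.3): TMM scaling, filterByExpr, all 6 columns, line and hairpin as terms, quasi-likelihood F test with 2 residual degrees of freedom, Benjamini-Hochberg adjustment over all genes tested and a threshold of 0.05. The p-values measure the spread between lines or hairpins, not between cultures. On simulated data with 200 well-counted genes changed 4-fold the steps recovered the changed genes. Spread there was small and the same for all genes, and hairpins acted alike in both lines. The simulation therefore checks the steps and does not show what the fit could detect in these data. DESeq2 1.42.0 was an alternative. Within a line, log2 ratios used TMM and a prior count of 2, and genes with 50 or more counts in either column were called at 2-fold (lists at 1.5-fold). Intervals are exact (Clopper-Pearson, 95%), cover counting error only, and were computed with scipy 1.17.1. Scaling to column totals shifted log2 ratios by -0.15 (shJMJD3 to shRenilla), -0.04 (shUTX to shRenilla) and -0.19 (shJMJD3 to shUTX) in CUTLL1 and by -0.31, -0.07 and -0.25 in CEM. Exon lengths and overlaps came from GENCODE release 29, which matched 48932 genes, and promoter sequences from RefSeq (GRCh38.p14), which matched all 4 genes; neither is the authors' build, so no coordinates of the files are given.

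The 4 genes and all gene lists were chosen with earlier results of these data known. Genes named from a list are up to 3 at least 1.5-fold from shRenilla in the same direction in both lines, otherwise up to 2 furthest from it in either line; every neighbour of the 4 genes and the 3 genes most like each are named. A few genes chosen by this rule are not reported here. CD1A, CD1B, CD4 and the genes named between lines were added after their values were seen. Alternatives were DESeq2, column totals, other count filters, another prior count, each form of the CUTLL1 control and leaving out a line or hairpin.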

Additional observations from a re-analysis of the deposited data

Results flagged for a closer look

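The TMM-scaled log2 ratios of 3 of the 4 genes had opposite signs in the 2 lines under the same hairpin, and the difference between lines was not tested, since each line has 1 pooled column a hairpin. For shJMJD3 against shRenilla, RAG1 had 0.29 in CUTLL1 and -2.21 in CEM, and RAG2 had 0.14 in CUTLL1 (-0.02 by column totals) and -2.03 in CEM. PTCRA had 0.04 in CUTLL1, with its sign set by the scaling, and -1.38 in CEM. For shJMJD3 against shUTX, RAG1 had 0.63 in CUTLL1 and -1.89 in CEM, and RAG2 had 0.08 in CUTLL1 (-0.10 by column totals) and -1.85 in CEM. The opposite sign held under both scalings for RAG1. It did not for RAG2, nor for PTCRA with shJMJD3 against shRenilla, where the CUTLL1 values lay close to 0. For shJMJD3 against shUTX, PTCRA had -0.07 in CUTLL1 and 0.36 in CEM, and -0.26 and 0.12 by column totals. The CEM intervals of that pair included 0. With shRenilla, RAG1 had 179 CPM in CUTLL1 against 274 CPM in CEM, and RAG2 and PTCRA were higher in CUTLL1.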

How the results depend on the processing

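The 2 lines are the only replicates, and leaving out CEM turned 7 hairpin ratios across lines. For shJMJD3 against shRenilla, PTCRA was 0.039 without CEM and -1.38 without CUTLL1, RAG1 was 0.29 and -2.21, and RAG2 was 0.14 and -2.03. For shJMJD3 against shUTX, PTCRA was -0.071 without CEM and 0.36 without CUTLL1, RAG1 was 0.63 and -1.89, and RAG2 was 0.085 and -1.85. For shUTX against shRenilla, DNTT was -0.00099 without CEM and 0.52 without CUTLL1. Column totals in place of TMM turned PTCRA for shJMJD3 against shUTX across lines to -0.12 and DNTT for CUTLL1 against CEM to -0.068, and RAG1 for CUTLL1 against CEM was -0.19 without the shJMJD3 columns and 1.08 without the shRenilla columns; none of these passed the test. Without the shJMJD3 columns the DNTT ratio of CUTLL1 to CEM passed (edgeR adjusted p = 0.0418). Within CUTLL1, PTCRA for shJMJD3 against shRenilla turned to -0.11 by column totals and -0.032 against the smaller control, RAG2 for the same pair to -0.016 and -0.0075, PTCRA for shUTX against shRenilla to 0.11 against the larger control and 0.11 against the remainder, RAG2 for shUTX against shRenilla to 0.053 and 0.23, and RAG2 for shJMJD3 against shUTX to -0.10 by column totals. In CEM no ratio of the 4 genes changed direction under column totals or a prior count of 0.5.

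Genes called across lines by edgeR numbered 0 for each hairpin comparison, but DESeq2 called 115 for shJMJD3 against shRenilla, 1 for shUTX against shRenilla and 313 for shJMJD3 against shUTX, for which edgeR called 6 with column totals and 55 with no filter on low counts. For CUTLL1 against CEM, 8835 genes were called, and 1732 to 10304 with 1 hairpin left out, the fewest without shRenilla; column totals moved the split to 3501 higher and 5883 lower, from 4559 and 4276. With a minimum of 10 counts in place of 50, genes at least 2-fold lower were 3699 for shJMJD3 against shRenilla and 3278 for shJMJD3 against shUTX in CEM. For shUTX against shRenilla that minimum gave 507 higher and 964 lower in CEM and 693 and 494 in CUTLL1. In CUTLL1 it gave 1470 higher and 1442 lower for shJMJD3 against shRenilla, and 4021 and 1302 for shJMJD3 against shUTX. Column totals gave 1289 higher and 3507 lower for shJMJD3 against shRenilla in CEM, in place of 2019 and 2290, and 859 lower for shJMJD3 against shUTX in CUTLL1. The cause of these shifts was not tested.

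No paired analysis was possible because the deposited columns carry no replicate number. Depth limits PTCRA in CEM, with 96 and 89 counts in the knockdown columns.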
